A study of Homo sapiens with 18 samples.

Results

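This account follows 8 genes known as direct targets of NOTCH in T-cell leukaemia, HES1, HES4, HEYL, DTX1, CR2, RHOU, SHQ1 and NRARP, through 18 RNA-seq libraries of RPMI-8402, a human cell line from T-cell acute lymphoblastic leukaemia (T-ALL). The genes were taken by name from the table of 58735 genes, and all 8 names were found once. The list was chosen with earlier results of these data known, so it is not independent evidence. The cells were either PIK3R1 knockout cells (KO) or non-targeting control cells (NT). Each was given CB-103, a gamma-secretase inhibitor (GSI, named LY in the library titles) or the solvent DMSO for 24 h. The 6 groups are KO with CB-103, KO with GSI, KO with DMSO, NT with CB-103, NT with GSI and NT with DMSO, each with 3 libraries. NT cells carry the genotype label WT, and all libraries come from the same line. The sources used here give neither the doses nor whether the knockout cells are 1 clone or a pool. Differences between KO and NT cells below therefore cannot be told apart from other differences between these sets of cells. The labels do not say whether the 3 libraries of a group are separate cultures, so each p-value measures only the spread between these libraries, which may be technical.

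NOTCH receptors are cut by gamma-secretase when a ligand on a neighbouring cell pulls on them. The freed intracellular part enters the nucleus, joins the DNA-binding protein RBPJ and a Mastermind protein, and switches on genes that carry RBPJ sites in their promoters or enhancers. In T-ALL the pathway is often locked on by NOTCH1 mutations. A gamma-secretase inhibitor blocks the cut, whereas CB-103 is a small molecule aimed at the assembled transcription complex. PIK3R1 encodes the regulatory subunit p85 of PI3-kinase, a signalling enzyme upstream of AKT. The 8 genes include transcriptional repressors of the HES and HEY family (HES1, HES4, HEYL), regulators of NOTCH signalling itself (DTX1, a Deltex ubiquitin ligase, and NRARP, an ankyrin-repeat feedback inhibitor), and genes with other roles (CR2, the complement receptor CD21; RHOU, an atypical small GTPase; SHQ1, an assembly factor for H/ACA ribonucleoproteins).

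RBPJ binds DNA at a short motif with the core TGGGAA, and a pair of such sites placed head to head can hold 2 complexes side by side. The RefSeq promoter table for GRCh38.p14 held 7 of the 8 genes; DTX1 is named only. The promoter of HES1 is printed first because it carries such a pair, as the 250 bases before the start on chr3:194135898-194136147, plus strand. Capitals mark the core TGGGAA, the longer form TGTGGGAA and the partner half-site TTCACA.
HES1: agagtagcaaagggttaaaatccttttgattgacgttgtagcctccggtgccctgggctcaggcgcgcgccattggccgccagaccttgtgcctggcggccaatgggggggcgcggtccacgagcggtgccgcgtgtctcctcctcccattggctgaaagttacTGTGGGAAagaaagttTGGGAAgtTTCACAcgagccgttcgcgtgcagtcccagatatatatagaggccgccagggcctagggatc
The next lines set the paired site of HES1, chr3:194136062-194136091 on the plus strand, against that of HES4, chr1:1000146-1000175 on the minus strand, with capitals on the outer half-sites alone.
HES1 pair: TGTGGGAAagaaagtttgggaagtTTCACA
HES4 pair: TGTGGGAAagaatgcggagccgggTTCACA
Both pairs are 30 bases long with 16 bases between their outer parts, and they begin 86 bases before the RefSeq start of HES1 and 78 bases before that of HES4. GENCODE 29 places the first base of its longest HES4 transcript at position 1000172, inside the pair.

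Searched on both strands of the 300-base windows (250 before and 50 after the start) of 35116 promoters, the core TGGGAA was present in 24% and TGTGGGAA, which contains it, in 1.71%. The full pair, TGTGGGAA followed after any 16 bases by TTCACA, was found in 2 promoters, 0.0057%, and these were HES1 and HES4. The letters of the pair were chosen after the HES1 and HES4 sequences had been seen, so this share is a description of the window and no test. HEYL held the core at 2 places without such a pair, and 1 of them was CGTGGGAA, a form present in 0.826% of promoters. CR2, SHQ1, NRARP and both RefSeq starts of RHOU held no TGGGAA in the window, which says only that these letters are not there.

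**Figure D1:**
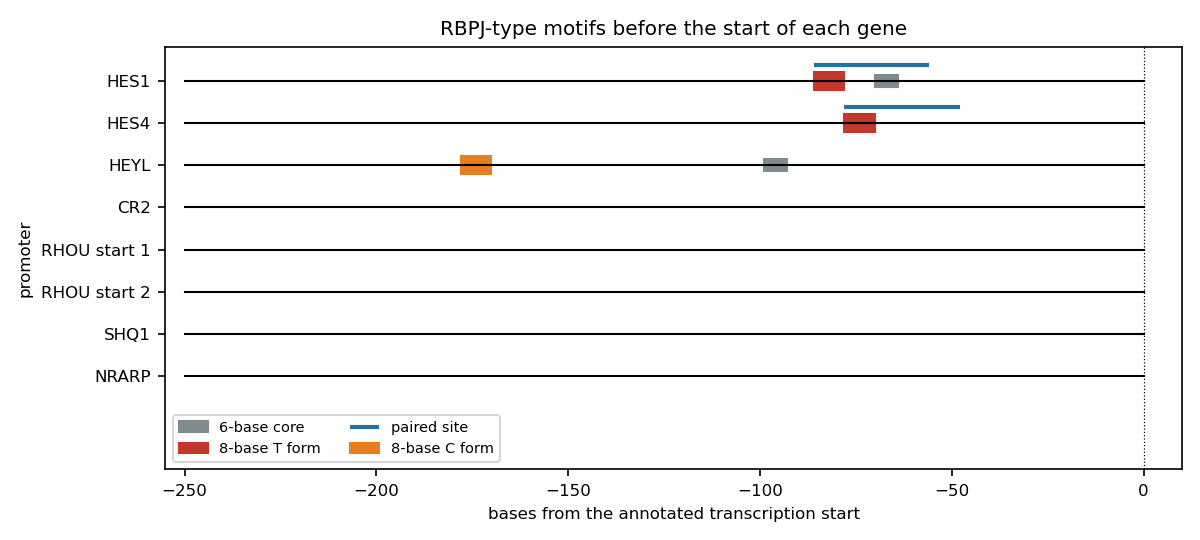
Positions of the RBPJ-type motifs in the 250 bases before the RefSeq start of 7 genes (RHOU has 2 starts); the horizontal axis gives bases from the start, grey boxes mark the 6-base core, red and orange boxes the 8-base forms, and blue lines the paired site. HES1 and HES4 carry the pair, HEYL has a core at 2 places, and the other promoters have none.

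Read depth was 30416183 to 43558387 estimated reads per library, and 17346 genes passed the filter on low counts, 7 of the 8 targets among them. Levels below are CPM, reads normalised to library size with TMM scaling, and a change was called at an adjusted p under 0.05. PIK3R1 RNA averaged 22.5 ± 1.0 CPM in KO cells and 44.1 ± 1.5 CPM in NT cells under DMSO (SD, n = 3 each), 27.8 ± 2.0 against 31.1 ± 2.2 CPM under CB-103, and 27.8 ± 4.2 against 53.6 ± 3.2 CPM under GSI, so RNA of the targeted gene remained in the KO libraries. Of 15 markers of T-cell leukaemia, 12 reached 1 CPM in at least 1 group, and their sum was 1460 to 1550 CPM in KO cells with CB-103, 2450 to 2570 CPM with GSI and 2390 to 2550 CPM with DMSO. In NT cells the sum was 1260 to 1430 CPM with CB-103, 2620 to 2700 CPM with GSI and 2820 to 2970 CPM with DMSO. The sums under GSI hide changes of single markers. DNTT averaged 922 CPM with GSI against 475 CPM with DMSO in KO cells, and 1040 against 519 CPM in NT cells. Of 14 markers tested under GSI, 8 were lower and 3 higher in KO cells, and 9 lower and 2 higher in NT cells. Among all genes 9.58% were lower and 9.69% higher in KO cells, and 15% lower and 9.67% higher in NT cells. Of the markers of other cells, 6 of 8 for B cells, 5 of 8 for myeloid cells, 7 of 7 for erythroid cells and 7 of 9 for adherent cells stayed under 1 CPM in every group. The summed myeloid list, led by CD68, was 32.6 to 40.5 CPM in KO cells with CB-103 and 15.2 to 17.2 CPM in NT cells with CB-103, against 4.7 to 11.2 CPM in the other 4 groups, and its part in the results was not tested. The summed adherent-cell list, carried by PECAM1, was 112 to 132 CPM in KO cells and 78.2 to 84.5 CPM in NT cells with CB-103, against 224 to 286 CPM in the other 4 groups, and its part was not tested either. In bulk RNA, fewer cells of a kind and less RNA per cell cannot be told apart. The libraries numbered 1 differed from those numbered 2 and 3 in 2488 of the 17346 genes tested. None of the 7 targets was called (adjusted p 0.061 to 0.79). With only 7 genes, this does not show that the targets were spared. With the libraries numbered 2 and 3 only, the 28 target values for an inhibitor against DMSO moved by at most 0.09 on the log2 scale and kept their calls.

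Under DMSO the targets stood at very different levels, here compared per length as TPM, which divides reads by transcript length. RHOU was the highest, at 388 ± 7 TPM in KO cells and 300.0 ± 0.9 TPM in NT cells, followed by HES4 at 259 ± 9 and 214 ± 6 TPM. HES1 (89.5 ± 8.9 and 96.6 ± 5.5 TPM), SHQ1 (91.7 and 86.3 TPM), DTX1 (54.4 and 110 TPM) and CR2 (52.0 and 48.3 TPM) were intermediate, and HEYL was the lowest of those detected, at 16.3 ± 0.4 TPM in KO cells and 10.05 ± 0.26 TPM in NT cells. NRARP was listed at 0 reads in all 18 libraries. A count of 0 allows up to 3 reads, or 0.0689 to 0.0986 CPM by library, which covers counting error only, so NRARP was not detectable at this depth and its response could not be measured. The reads were assigned to transcripts by estimate, and whether the 0 reflects the RNA or that estimate cannot be told from these values, in which case the limit would not hold.

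Both inhibitors lowered the targets in both genotypes, and most of them by far more than 2-fold. In KO cells all 7 tested targets fell under CB-103 (48.6% of all genes were called there, 23.7% as lower) and 6 of 7 fell under GSI (19.3% called, 9.58% lower). In NT cells 7 of 7 fell under CB-103 (58.2% called, 28.7% lower) and 6 of 7 under GSI (24.7% called, 15% lower). Under CB-103 a call alone was common among all genes. The 5 genes HES1, HES4, DTX1, CR2 and RHOU were at least 2-fold lower in each of the 4 comparisons. The share of all genes called and at least 2-fold lower was 3.83% for CB-103 and 1.16% for GSI in KO cells, and 7.89% for CB-103 and 1.52% for GSI in NT cells. The median log2 fold change of the 7 targets was -2.19 with CB-103 and -2.84 with GSI in KO cells, and -2.42 with CB-103 and -2.32 with GSI in NT cells, beside medians over all genes between -0.01 and 0.04. The 2 comparisons within a genotype share their DMSO libraries.

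**Figure D2:**
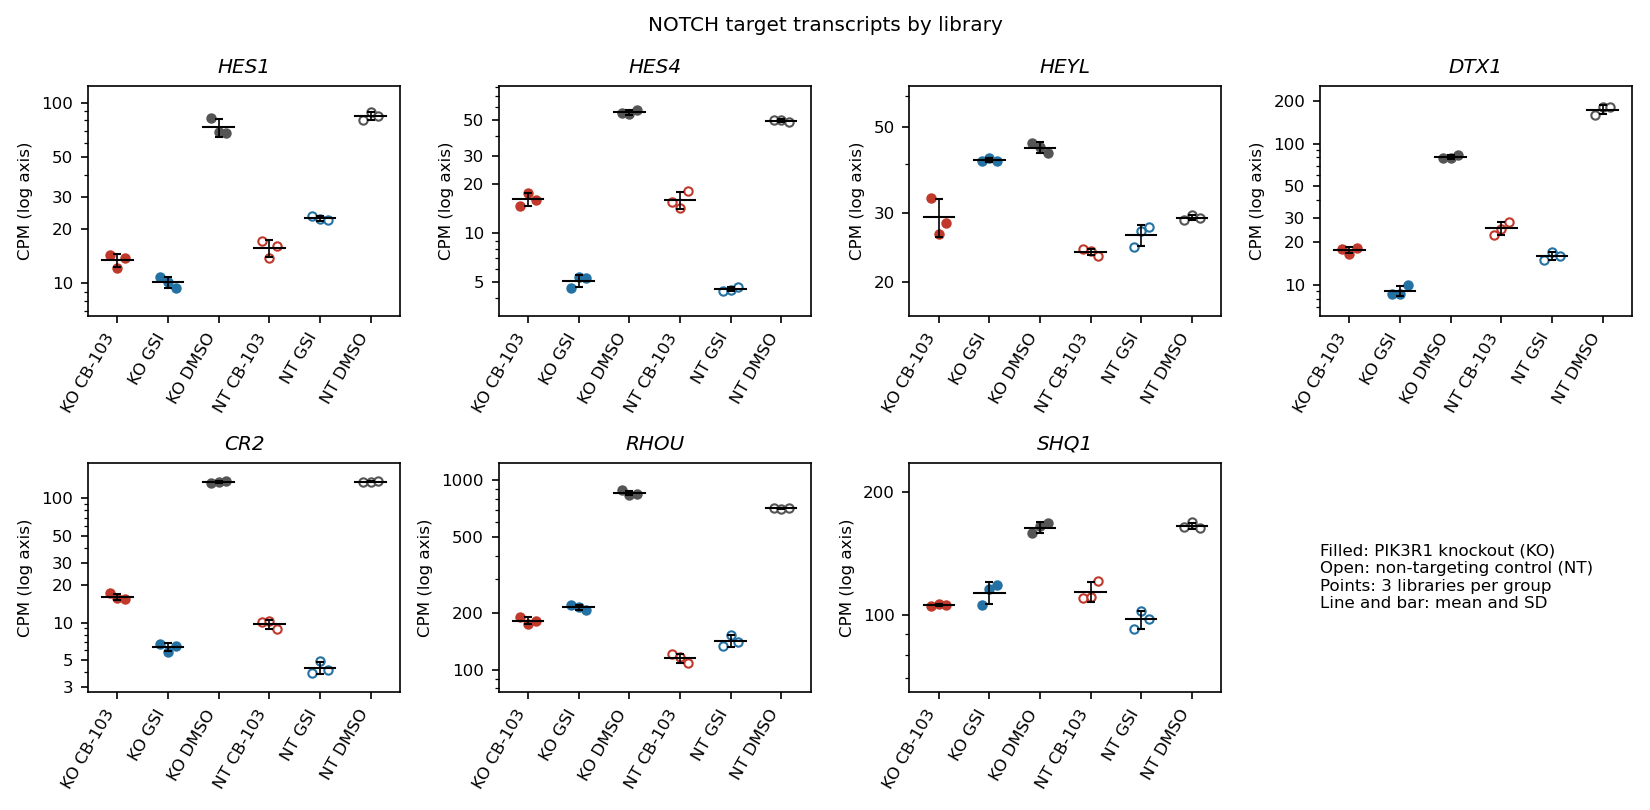
CPM of the 7 detected targets in all 18 libraries on log axes, each panel with its own range; points are libraries (filled for KO, open for NT), and black lines and bars give the mean and SD of 3 libraries. In 5 panels (HES1, HES4, DTX1, CR2, RHOU) every inhibitor library lies far below every DMSO library of its genotype, while HEYL and SHQ1 move little.

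HES1 encodes the repressor through which NOTCH holds down differentiation and cell-cycle inhibitor genes, and it lies on chromosome 3 at 194136145 to 194138732 (plus strand; all gene positions are those of GENCODE 29 on GRCh38). In KO cells HES1 had 14.39, 12.23 and 13.86 CPM under CB-103 and 10.91, 10.13 and 9.446 CPM under GSI, against 82.32, 68.73 and 67.86 CPM under DMSO. In NT cells it had 17.14, 13.79 and 16.14 CPM under CB-103 and 23.68, 22.6 and 22.53 CPM under GSI, against 80.6, 88.35 and 84.21 CPM under DMSO. GSI thus left the lowest level in KO cells but the higher of the 2 treated levels in NT cells, and none of the treated libraries reached the DMSO range. The HES1 log2 fold change under CB-103 was -2.43 ± 0.09 in KO cells (SE, n = 3 each here and below; adjusted p = 3.5e-13) and -2.42 ± 0.09 in NT cells (adjusted p = 1.7e-13). Under GSI it was -2.84 ± 0.09 in KO cells (adjusted p = 3.6e-13) and -1.88 ± 0.09 in NT cells (adjusted p = 4e-11).

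HES4 is a HES1 relative that humans have and mice lack, on chromosome 1 at 998962 to 1000172 (minus strand). In KO cells HES4 had 14.81, 17.69 and 15.96 CPM under CB-103 and 4.561, 5.335 and 5.29 CPM under GSI, against 55.33, 54.38 and 57.91 CPM under DMSO. NT cells had 15.65, 14.27 and 18.12 CPM under CB-103 and 4.406, 4.478 and 4.652 CPM under GSI, against 49.93, 50.27 and 48.4 CPM under DMSO. The 3 treatments formed 3 separate levels that were close to each other in the 2 genotypes, with GSI lowest. GSI left 9.06% of the DMSO mean in KO cells and 9.11% in NT cells, and CB-103 left 28.9% in KO cells and 32.3% in NT cells. The log2 fold change under GSI was -3.46 ± 0.09 in both KO cells (adjusted p = 2e-14) and NT cells (adjusted p = 1.1e-14), and that under CB-103 was -1.79 ± 0.08 in KO cells (adjusted p = 4.7e-12) and -1.63 ± 0.08 in NT cells (adjusted p = 8.1e-12).

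HEYL, a HEY-family repressor on chromosome 1 at 39624153 to 39639945 (minus strand), had the smallest fold changes of the 7. In KO cells HEYL had 32.91, 26.61 and 28.3 CPM under CB-103 and 40.84, 41.66 and 40.74 CPM under GSI, against 45.39, 44.43 and 42.68 CPM under DMSO. In NT cells it had 24.28, 23.96 and 23.37 CPM under CB-103 and 24.56, 27.05 and 27.6 CPM under GSI, against 28.87, 29.69 and 29.13 CPM under DMSO. Every treated library was below the DMSO libraries of its genotype, but the gap was narrow. The HEYL log2 fold change under CB-103 was -0.59 ± 0.07 in KO cells (adjusted p = 5.7e-07) and -0.29 ± 0.07 in NT cells (adjusted p = 0.001). Under GSI the log2 fold change was -0.10 in KO cells (95% interval -0.24 to 0.03, adjusted p = 0.3) and -0.15 in NT cells (interval -0.29 to -0.01, adjusted p = 0.12), and neither was called.

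DTX1 encodes a Deltex protein that binds the NOTCH intracellular domain, on chromosome 12 at 113056709 to 113098028 (plus strand). In KO cells DTX1 had 17.98, 16.58 and 18.23 CPM under CB-103 and 8.615, 8.599 and 9.981 CPM under GSI, against 79.45, 78.98 and 82.98 CPM under DMSO. NT cells had 22.56, 24.95 and 27.94 CPM under CB-103 and 14.92, 17.18 and 15.96 CPM under GSI, against 159.5, 181 and 183.5 CPM under DMSO. GSI was below CB-103 in each genotype, and KO was below NT under each treatment, with no overlap between these groups. The DTX1 log2 fold change under GSI was -3.15 ± 0.09 in KO cells (adjusted p = 3.2e-14) and -3.45 ± 0.08 in NT cells (adjusted p = 4.3e-15). Under CB-103 it was -2.19 ± 0.08 in KO cells (adjusted p = 3.5e-13) and -2.80 ± 0.08 in NT cells (adjusted p = 8.2e-15).

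CR2, best known as a complement and Epstein-Barr virus receptor of B cells, lies on chromosome 1 at 207454230 to 207489895 (plus strand) and showed the deepest loss of the 7 in each comparison. In KO cells CR2 had 17.26, 15.75 and 15.62 CPM under CB-103 and 6.737, 5.818 and 6.455 CPM under GSI, against 134.4, 136.9 and 139.2 CPM under DMSO. In NT cells it had 10.16, 10.23 and 8.799 CPM under CB-103 and 3.905, 4.877 and 4.185 CPM under GSI, against 135.7, 136 and 137.1 CPM under DMSO. The DMSO libraries of the 2 genotypes overlapped, while under each inhibitor all KO libraries stood above all NT libraries. The CR2 log2 fold change under GSI was -4.43 ± 0.08 in KO cells (adjusted p = 7.3e-17) and -4.98 ± 0.08 in NT cells (adjusted p = 1.9e-17), which left 4.63% and 3.17% of the DMSO means. Under CB-103 it was -3.08 ± 0.07 in KO cells (adjusted p = 1e-15) and -3.81 ± 0.07 in NT cells (adjusted p = 1.3e-16). B-cell markers summed to between 2.11 and 6.2 CPM in all 18 libraries.

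RHOU, which encodes a small GTPase involved in cell shape and adhesion, lies on chromosome 1 at 228735077 to 228746669 (plus strand) and had the highest level of the 8 under DMSO. In KO cells RHOU had 189.8, 173.8 and 181.9 CPM under CB-103 and 220.2, 214.8 and 206.8 CPM under GSI, against 884.9, 836.7 and 846.3 CPM under DMSO. NT cells had 120.7, 116.7 and 108.7 CPM under CB-103 and 133.3, 152.9 and 140.3 CPM under GSI, against 714.3, 703.3 and 714.6 CPM under DMSO. Here CB-103 gave the lower level in both genotypes, and KO stood above NT in all 3 treatments without overlap. The RHOU log2 fold change under CB-103 was -2.23 ± 0.06 in KO cells (adjusted p = 4.3e-15) and -2.62 ± 0.06 in NT cells (adjusted p = 4.3e-16). Under GSI it was -2 ± 0.06 in KO cells (adjusted p = 3.2e-14) and -2.32 ± 0.06 in NT cells (adjusted p = 4.3e-15).

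SHQ1, needed for telomerase RNA and small nucleolar ribonucleoproteins, lies on chromosome 3 at 72749277 to 72861914 (minus strand) and kept 59.1% to 69.3% of its DMSO mean. In KO cells SHQ1 had 105.2, 106.2 and 105.6 CPM under CB-103 and 105.5, 115.9 and 118.2 CPM under GSI, against 158.1, 164.4 and 167.7 CPM under DMSO. In NT cells it had 109.9, 110.7 and 121 CPM under CB-103 and 92.32, 102.1 and 97.93 CPM under GSI, against 163.5, 168.3 and 163 CPM under DMSO. All treated libraries lay below all DMSO libraries, and the inhibitors overlapped in KO cells. The SHQ1 log2 fold change under CB-103 was -0.63 ± 0.05 in KO cells (adjusted p = 1.5e-08) and -0.53 ± 0.05 in NT cells (adjusted p = 7.2e-08). Under GSI it was -0.53 ± 0.05 in KO cells (adjusted p = 1.1e-06) and -0.76 ± 0.05 in NT cells (adjusted p = 7.9e-09).

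**Figure D3:**
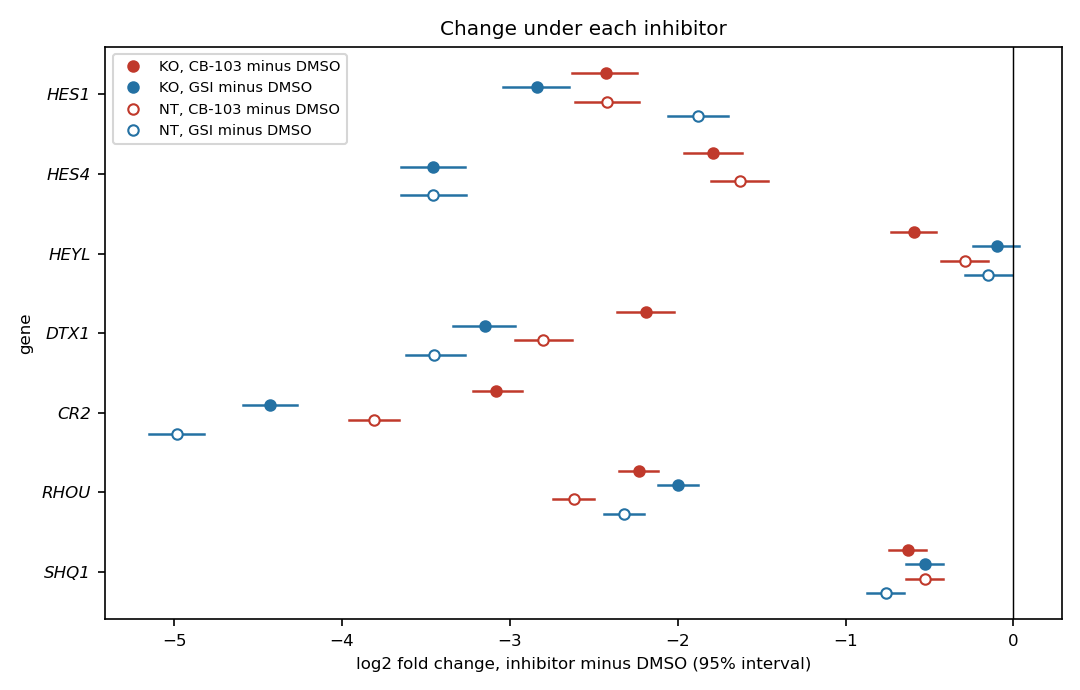
Log2 fold change of each target under an inhibitor against DMSO of the same genotype, with 95% intervals from the fit (red CB-103, blue GSI; filled KO, open NT; 3 libraries per group). CR2 lies furthest left, between -4.98 and -3.08, and HEYL nearest to 0, between -0.59 and -0.10.

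Set directly against each other, the inhibitors did not rank the same way for each target. HES4, CR2 and DTX1 kept more RNA under CB-103 than under GSI in both genotypes, RHOU kept less, and HES1 changed order with the genotype. In KO cells 6 of 7 targets differed, 4 higher and 2 lower under CB-103 (47.9% of all genes called, 24.7% higher and 23.1% lower), and in NT cells also 6 of 7, 4 higher and 2 lower (56.3% called, 29.2% higher and 27.1% lower), so calls of this kind were common among all genes. This makes 14 comparisons of the 2 treatments, and their p-values are adjusted over all genes in each genotype. Whether the doses match is unknown, so the values compare the 2 treatments as applied.

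HES4 was 3.19-fold higher under CB-103 than under GSI in KO cells (log2 1.67 ± 0.09, adjusted p = 6.3e-11) and 3.55-fold higher in NT cells (1.83 ± 0.09, adjusted p = 9.6e-12). CR2 was 2.56-fold higher in KO cells (1.36 ± 0.08, adjusted p = 1.1e-10) and 2.26-fold higher in NT cells (1.18 ± 0.08, adjusted p = 1.1e-09). DTX1 was 1.94-fold higher in KO cells (0.96 ± 0.09, adjusted p = 8e-08) and 1.57-fold higher in NT cells (0.65 ± 0.08, adjusted p = 2.3e-06). For these 3 genes every CB-103 library stood above every GSI library of its genotype. The CB-103 and GSI libraries did not overlap for the other tested targets either, except for SHQ1 in KO cells. How common this is among all genes was not counted. RHOU ran the other way, with log2 differences of -0.23 ± 0.05 in KO cells (adjusted p = 0.0015) and -0.30 ± 0.05 in NT cells (adjusted p = 0.00012).

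HES1 was 1.33-fold higher under CB-103 than under GSI in KO cells (log2 0.41 ± 0.10, adjusted p = 0.0019) but 1.46-fold lower in NT cells (-0.54 ± 0.09, adjusted p = 4.5e-05). HEYL was lower under CB-103 in KO cells (-0.49 ± 0.07, adjusted p = 6.3e-06), and in NT cells the log2 difference of -0.14 was not called (adjusted p = 0.075). SHQ1 was higher under CB-103 in NT cells (0.23 ± 0.05, adjusted p = 0.0012), a call lost at adjusted p = 0.057 when transcript estimates were summed per gene, while in KO cells the log2 difference of -0.10 was not called (95% interval -0.21 to 0.01, adjusted p = 0.13). The test of the change in this difference between genotypes (KO minus NT) passed for HES1 (log2 0.95 ± 0.13, adjusted p = 0.00017), SHQ1 (-0.32 ± 0.07, adjusted p = 0.0073) and HEYL (-0.34 ± 0.09, adjusted p = 0.022), that is for 3 of 7 targets, 1 higher and 2 lower, beside 12.6% of all genes (7.04% higher, 5.59% lower). For HES4, CR2, DTX1 and RHOU it was not called (adjusted p 0.12 to 0.66). The HEYL call was lost in 4 settings, without NT GSI replicate 1 (adjusted p = 0.06), without KO GSI replicate 2 (adjusted p = 0.053), with no count filter (adjusted p = 0.066) and with the compared groups alone (adjusted p = 0.084), and that of SHQ1 with the transcript sums (adjusted p = 0.056).

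**Figure D4:**
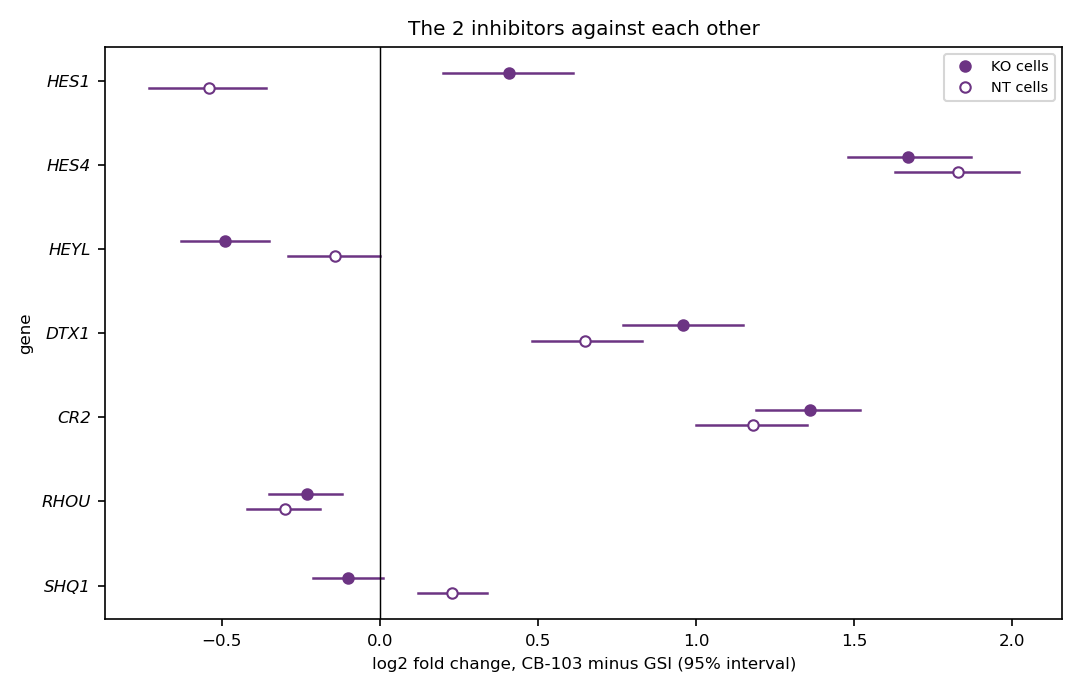
Log2 fold change of each target under CB-103 over GSI with its 95% interval (filled points KO, open points NT; 3 libraries per group). HES4, CR2 and DTX1 lie right of 0 in both genotypes, RHOU lies left in both, and HES1 lies right in KO cells (0.41) and left in NT cells (-0.54).

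Without an inhibitor, DTX1, HEYL and RHOU differed between the genotypes. Under DMSO 3 of 7 targets were called between KO and NT cells, 2 higher and 1 lower, beside 21.4% of all genes (9.78% higher, 11.7% lower). DTX1 was 2.17-fold lower in KO cells (log2 -1.12 ± 0.07, adjusted p = 1e-08), HEYL was 1.51-fold higher (0.60 ± 0.07, adjusted p = 3e-06) and RHOU was 1.2-fold higher (0.27 ± 0.05, adjusted p = 0.0012). CR2 and SHQ1 had log2 differences of 0.01 (95% interval -0.12 to 0.13) and -0.01 (-0.12 to 0.10). HES1 (-0.21, adjusted p = 0.079) and HES4 (0.17, adjusted p = 0.12) were not called. HES1 passed at -0.36 with the libraries numbered 2 and 3 only (adjusted p = 0.0052). Without KO DMSO replicate 1, the highest HES1 library of its group, it passed at -0.305 (adjusted p = 0.014). With all libraries kept, HES1 passed at -0.215 with limma-voom (adjusted p = 0.034) and at -0.216 with the replicate number as a term (adjusted p = 0.031). HES4 passed at 0.44 with transcript estimates summed per gene (adjusted p = 0.029), at 0.18 with the compared groups alone (adjusted p = 0.02) and at 0.17 with limma-voom (adjusted p = 0.043).

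Under each inhibitor DTX1 stayed lower and CR2, RHOU and HEYL stood higher in KO cells. Under CB-103 4 of 7 differed (37% of all genes called, 20.4% higher and 16.5% lower), with CR2 (0.74 ± 0.07, adjusted p = 5.3e-07), RHOU (0.66 ± 0.05, adjusted p = 6.9e-08) and HEYL (0.29 ± 0.07, adjusted p = 0.0021) higher in KO cells and DTX1 lower (-0.51 ± 0.08, adjusted p = 9.8e-05). Under GSI 6 of 7 differed (33.8% called, 18.8% higher and 15% lower), 4 higher and 2 lower in KO cells. HES1 had a log2 difference of -1.17 ± 0.09 there (adjusted p = 6.8e-08), 10.2 ± 0.7 CPM in KO cells against 22.9 ± 0.6 CPM in NT cells, and DTX1 was lower too (-0.82 ± 0.09, adjusted p = 2.7e-06). HEYL (0.64 ± 0.07), RHOU (0.59 ± 0.05), CR2 (0.56 ± 0.09) and SHQ1 (0.22 ± 0.05) were higher in KO cells, with adjusted p from 3.6e-07 to 0.0039. HES4 was not called under CB-103 (0.01, adjusted p = 0.93) or under GSI (0.17, adjusted p = 0.22).

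Whether the response differed between KO and NT cells was tested as the difference of the 2 log2 changes against DMSO, KO minus NT. A positive value means a shallower loss in KO cells. For CB-103 4 of 7 targets passed, 3 positive and 1 negative, beside 14.6% of all genes (10.3% positive, 4.34% negative). CR2 lost less in KO cells (0.73 ± 0.09, adjusted p = 7.1e-05), as did DTX1 (0.60 ± 0.11, adjusted p = 0.0014) and RHOU (0.39 ± 0.08, adjusted p = 0.0023). HES1 had a difference of -0.01 (95% interval -0.27 to 0.25) and was not called. HEYL lost more in KO cells (-0.30 ± 0.09, adjusted p = 0.037), a call that was lost in 13 of 20 alternative settings, with adjusted p up to 0.11. Those included leaving out any 1 of NT DMSO replicates 1, 2 and 3, NT CB-103 replicates 1, 2 and 3, KO DMSO replicates 1 and 2, or KO CB-103 replicates 2 and 3.

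For GSI 3 of 7 passed, 2 positive and 1 negative, beside 2.79% of all genes (2.1% positive, 0.692% negative). HES1 lost more in KO cells (-0.96 ± 0.12, adjusted p = 0.0014), and this held in all 20 alternative settings, with values from -1.06 to -0.85. With the libraries numbered 2 and 3 only, the value for HES1 was -0.85 (adjusted p = 0.019). CR2 lost less in KO cells (0.55 ± 0.11, adjusted p = 0.019), and RHOU did as well (0.32 ± 0.08, adjusted p = 0.037). With the libraries numbered 2 and 3 only, neither was called (CR2 0.44, adjusted p = 0.11; RHOU 0.29, adjusted p = 0.091). The CR2 call was also lost without NT DMSO replicate 1 (adjusted p = 0.05), NT GSI replicate 1 (adjusted p = 0.056) or KO GSI replicate 3 (adjusted p = 0.054), and the RHOU call without any 1 of NT DMSO replicates 1 to 3, NT GSI replicates 1 and 3, KO DMSO replicate 2 or KO GSI replicates 1 to 3. DTX1 (0.30, adjusted p = 0.16), SHQ1 (0.23, adjusted p = 0.094), HEYL (0.04) and HES4 (-0.01) were not called. With transcript estimates summed per gene the HES4 value was -0.50 (adjusted p = 0.24).

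**Figure D5:**
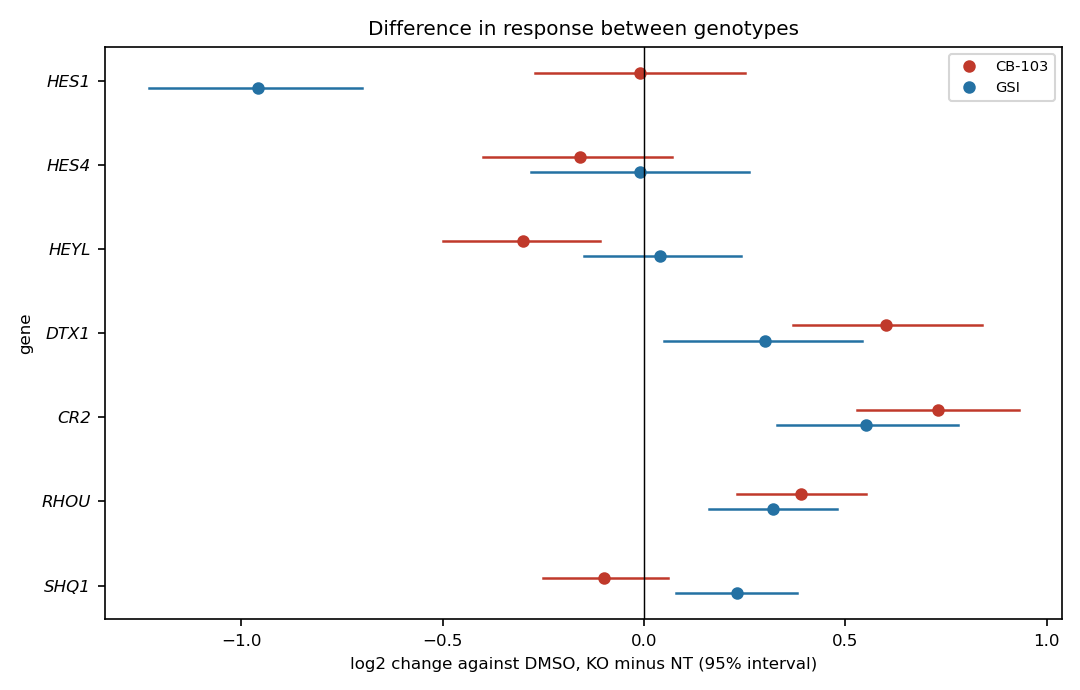
Difference between genotypes in the log2 change against DMSO, KO minus NT, with 95% intervals (red CB-103, blue GSI). CR2, DTX1 and RHOU lie right of 0, which is a shallower loss in KO cells (DTX1 under GSI was not called), and HES1 lies at -0.96 for GSI and near 0 for CB-103.

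Ordered by mean CPM over the 6 groups, the targets differed in which neighbours could be told apart. HES1 ran from NT with DMSO down through KO with DMSO, NT with GSI, NT with CB-103, KO with CB-103 and KO with GSI. In the main fit the pairs of DMSO groups and of CB-103 groups did not separate. With the replicate number as a term both pairs were called (adjusted p = 0.031 for DMSO and 0.044 for CB-103). HES4 ran KO with DMSO, NT with DMSO, KO with CB-103, NT with CB-103, KO with GSI and NT with GSI, with only the steps between treatments called. CR2 ran in the same order as HES4, and each step but that between the DMSO groups was called. For RHOU all 5 steps were called, in the order KO with DMSO, NT with DMSO, KO with GSI, KO with CB-103, NT with GSI and NT with CB-103. DTX1 had NT above KO within each treatment, and the neighbours KO with CB-103 (17.6 CPM) and NT with GSI (16.02 CPM) did not separate (adjusted p = 0.18). HEYL was ordered by genotype first, the 3 KO groups above the 3 NT groups, although KO with CB-103 and NT with DMSO did not separate (adjusted p = 0.98). In SHQ1 NT with CB-103 was called below KO with DMSO, its upper neighbour (adjusted p = 9.4e-08), and no step among the 4 treated groups was called.

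At the level of transcripts, HES1 RNA was almost all 1 protein-coding transcript, with 95.7% of the gene's TPM over the 18 libraries. HES4 was split between its longest coding transcript (40.5%), a coding transcript that starts at 1000111 (30.2%) and a retained-intron transcript (26.9%). In KO cells with CB-103, GSI and DMSO the HES4 transcript from 1000111 had 17.5 ± 1.5, 7.2 ± 0.4 and 94.7 ± 7.6 TPM. In NT cells it had 11.4 ± 0.9, 6.4 ± 1.9 and 61.9 ± 10.3 TPM. The longest coding one averaged 32.5, 8.16 and 105.5 TPM in KO cells and 27.4, 6.04 and 87.8 TPM in NT cells. The retained-intron one averaged 19.75, 6.57 and 49.8 TPM in KO cells and 31.6, 8.02 and 62.0 TPM in NT cells. By these estimates the HES4 transcripts differed in how much CB-103 left. DTX1 was shared between a short transcript without an annotated reading frame (43.3%) and a coding one (42.4%). In KO cells with CB-103, GSI and DMSO the short DTX1 transcript averaged 4.9, 2.3 and 24.7 TPM and the coding one 5.4, 2.7 and 23.1 TPM. In NT cells the short one averaged 6.8, 4.8 and 47.0 TPM and the coding one 7.0, 4.8 and 45.5 TPM. Both were thus lower under each inhibitor. CR2 and SHQ1 each had 1 leading transcript (84.3% and 94.7%), and RHOU and HEYL have 1 annotated transcript each. The transcript values are estimates of how reads are split, given with no test. None of the 8 genes shares exon sequence with another annotated gene by overlap.

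Other genes known as NOTCH targets in T-ALL were called in the lower direction only. Of 8 tested of 11 listed, 7 fell and none rose under CB-103 in each genotype, and 4 fell and none rose under GSI in each genotype. Among all genes 23.7% were lower under CB-103 and 9.58% under GSI in KO cells, with 28.7% and 15% in NT cells. MYC, the growth-driving transcription factor, averaged 26.5 ± 1.1 CPM with CB-103, 35.4 ± 1.4 CPM with GSI and 110 ± 11 CPM with DMSO in KO cells, and 26.6 ± 0.9, 31.5 ± 1.7 and 123 ± 6 CPM in NT cells. NOTCH3, a receptor and target, averaged 21.0 ± 2.2 CPM with CB-103, 26.0 ± 4.1 CPM with GSI and 74.6 ± 1.7 CPM with DMSO in KO cells, and 11.5 ± 4.1, 14.5 ± 1.3 and 49.2 ± 3.4 CPM in NT cells. CCND3, the G1 cyclin D3, was called lower under CB-103 (log2 -1.66 ± 0.07 in KO and -2.64 ± 0.08 in NT cells) and not under GSI (-0.03 and 0.09). NOTCH1 was lower under CB-103 in KO cells (-1.10 ± 0.06) and NT cells (-1.68 ± 0.06). Under GSI it was called in KO cells (-0.49 ± 0.06, adjusted p = 8.7e-06) and not in NT cells (-0.16, adjusted p = 0.05).

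The counts of the other pathway lists stand beside the shares of all genes that were called. Under CB-103 24.9% of all genes were higher and 23.7% lower in KO cells, and 29.5% higher and 28.7% lower in NT cells. Under GSI 9.69% were higher and 9.58% lower in KO cells, and 9.67% higher and 15% lower in NT cells. Of 16 genes of the NOTCH transcription complex and its corepressors, 1 rose and 8 fell under CB-103 in KO cells and 2 rose and 12 fell in NT cells, while under GSI 3 rose and 1 fell in KO cells and 3 rose and 2 fell in NT cells. Of 7 gamma-secretase and ADAM protease genes tested, 5 rose and none fell under CB-103 in KO cells, and 4 rose and 1 fell in NT cells; ADAM17, a receptor-cutting protease, rose 2.44-fold in KO and 2.12-fold in NT cells. Under GSI 3 protease genes rose in KO cells and 2 in NT cells, with none lower. Of 13 modifiers and regulators, 7 rose and 4 fell under CB-103 in KO cells and 7 rose and 3 fell in NT cells, with 1 higher and 3 lower in KO cells and 1 higher and 2 lower in NT cells under GSI. The 4 receptor genes gave 1 higher and 2 lower under CB-103 in KO cells, 2 lower in NT cells, and 2 lower under GSI in each genotype. Of 5 ligand genes 2 were tested, and JAG1 fell in all 4 comparisons (log2 -1.16 to -0.65). DLL1, the other ligand tested, rose under CB-103 in NT cells (0.895 ± 0.579 against 0.264 ± 0.058 CPM, log2 1.72 ± 0.46, adjusted p = 0.0039) and was not called in the other 3 comparisons. The other HES and HEY genes were scarce, with 4 of 7 tested and none above a group mean of 1.28 CPM.

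Across the 18 libraries, 5 genes outside the 8 had log2 CPM most like the mean of the 7 targets, with Pearson's r of 0.991 for CAT, 0.979 for IGF1R, 0.975 for TENT5C, 0.974 for RGS3 and 0.97 for USP7. The 18 libraries fall into 6 groups and share their treatments, and r is a description with no test. CAT, which encodes catalase, averaged 225 CPM with CB-103, 185 CPM with GSI and 486 CPM with DMSO in KO cells, and 226, 198 and 571 CPM in NT cells. Among the targets, the r of each with the mean of the other 6 was 0.982 for CR2, 0.951 for SHQ1, 0.926 for DTX1, 0.914 for RHOU, 0.904 for HES4 and 0.9 for HES1, but 0.298 for HEYL.

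The 2 nearest tested genes of each target were also examined, 16 in all. Under CB-103 10 fell and none rose in KO cells, and 10 fell and 1 rose in NT cells; under GSI 5 fell and 2 rose in KO cells, and 8 fell and 2 rose in NT cells. Among all genes 23.7% were lower under CB-103 and 9.58% under GSI in KO cells, and 28.7% under CB-103 and 15% under GSI in NT cells. The 2 that rose under GSI lie nearest to HES1, which itself fell. They were LINC02036 (log2 0.55 in KO and 1.15 in NT cells) and LINC02037 (1.29 and 1.43). Under CB-103 both fell, LINC02036 by -0.66 and -1.49 and LINC02037 by -0.87 and -2.78. The 2 closest neighbours by distance were called lower in all 4 comparisons. ENSG00000272512, on the same strand as HES4 at a distance of 911 bases, averaged 1.39 CPM with CB-103, 0.528 CPM with GSI and 9.50 CPM with DMSO in KO cells, and 1.54, 0.397 and 6.72 CPM in NT cells. Its log2 fold change was -2.77 with CB-103 and -4.16 with GSI in KO cells, and -2.12 and -4.05 in NT cells (adjusted p 5.1e-09 to 3.1e-07). RASAL1, on the opposite strand 791 bases from DTX1, averaged 4.07 CPM with CB-103, 1.07 CPM with GSI and 7.43 CPM with DMSO in KO cells, and 2.17, 0.417 and 7.61 CPM in NT cells. Its log2 fold change was -0.87 with CB-103 and -2.78 with GSI in KO cells, and -1.81 and -4.19 in NT cells (adjusted p 3.5e-08 to 0.0097). Both neighbours, like HES4 and DTX1, had the lower mean under GSI. ISG15, an interferon-stimulated gene 966 bases from HES4 on the other strand, fell under CB-103 in KO cells (-0.62, adjusted p = 0.028) and in NT cells (-0.98, adjusted p = 0.0012) and was not called under GSI.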

How the data were processed

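Poly(A) RNA of RPMI-8402 cells was sequenced as 18 stranded paired-end libraries, per the labels' protocols. The authors deposited estimated counts per gene rounded to whole numbers, and per library the estimated counts and TPM of each transcript, per the file headers. Salmon 1.4.0 and HISAT2 2.2.1 are named, beside hg38 as build, FastQC 0.11.9 and bcl2fastq 2.20, per the submitters' processing notes, which give no order or role. The authors also deposited variance-stabilised log2 values, which were used for no test. Reads shared by transcripts are split by estimate, so a transcript's value is less certain than a gene's.

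From the deposited estimated counts, edgeR 4.0.16 (R 4.3.3) fitted 1 mean per group over all 18 libraries, with TMM scaling, the filterByExpr filter on low counts, quasi-likelihood F tests and Benjamini-Hochberg adjustment over the 17346 genes tested. SE is the log2 fold change divided by the square root of F. CPM use TMM-scaled library sizes. Residual degrees of freedom were 12 and the common biological coefficient of variation 0.0965. The fit was also run on simulated data in which far fewer genes changed than were called here under CB-103. That run is therefore no check of the scaling in these data. The gene IDs were named through GENCODE 29, with a symbol for 58207 of 58735. No pair of libraries was identical. Depth sets the limit for a count of 0; floors cover counting error only. Alternatives were DESeq2 1.42.0 size factors and Wald test, limma 3.58.1 voom, no count filter, the compared groups alone, the replicate number as a term, replicates 2 and 3 only, sums of transcript estimates, and leaving out each library.

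The genes and lists were chosen with earlier results of these data known, so no list is independent evidence. Named besides the 8 genes were PIK3R1, up to 4 genes per pathway list with the largest called changes in NT cells together with NOTCH1, NOTCH3 and MYC, the 5 genes most like the targets (mean of 5 CPM or more), and the 2 nearest genes of each. ISG15, ENSG00000272512, RASAL1, LINC02036 and LINC02037 were singled out among the nearest after their values were seen.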

Additional observations from a re-analysis of the deposited data

Results flagged for a closer look

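The genotypes differed in their response, by tests of the difference itself (log2, KO minus NT, edgeR), in 10 results. Of 7 targets, 4 passed for CB-103 against DMSO, 3 for GSI against DMSO and 3 for CB-103 over GSI. Among all genes 14.6%, 2.79% and 12.6% were called in these tests. The CB-103 over GSI contrast is the difference of the other 2, so its results are not separate. Under CB-103 the loss was shallower in KO cells for CR2 by 0.73, for DTX1 by 0.60 and for RHOU by 0.39. It was deeper for HEYL (-0.30), a call lost in 13 of 20 alternative settings. Under GSI the loss was deeper in KO cells for HES1 (-0.96) and shallower for CR2 by 0.55 and for RHOU by 0.32. The RHOU call was lost in 11 of 20 alternative settings and the CR2 call in 4. CB-103 over GSI, as log2 fold change, shifted between genotypes (KO minus NT) by 0.95 for HES1 (0.41 in KO cells, -0.54 in NT cells). The shift was -0.32 for SHQ1 (-0.10 in KO cells, 0.23 in NT cells). That for HEYL was -0.34 (-0.49 in KO cells, -0.14 in NT cells). Of 20 alternative settings, the HEYL call was lost in 4 and the SHQ1 call in 1. PIK3R1 RNA, beside these, was 27.8 ± 2.0 CPM in KO cells and 31.1 ± 2.2 CPM in NT cells under CB-103. Mitochondrial RNA took 1.69% to 2.69% of the reads in KO libraries and 1.9% to 5.51% in NT libraries, and its part in these differences was not tested.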

How the results depend on the processing

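Of 61 called values of single targets, 55 kept their call in each alternative run. The exceptions for SHQ1 were the difference between CB-103 and GSI in NT cells and its change between genotypes. For HEYL they were the genotype difference (KO minus NT) in the CB-103 response and the change in the inhibitor difference. For RHOU and CR2 the exception was the genotype difference in the GSI response. No call against DMSO within a genotype changed in any alternative run. Of 23 values not called, 7 were called in at least 1 alternative. The GSI response by genotype was the least stable count: 484 genes were called, against 1291 with the replicate block, 997 with transcript sums, 42 with replicates 2 and 3 only, 1284 with the DESeq2 Wald test, and 53 to 1505 with 1 library left out. Of the targets 3 were called in it, against 1 with replicates 2 and 3 only and 1 to 4 with 1 library left out. Between KO and NT cells under DMSO limma-voom called 5 targets, against 3. The cause was not tested.

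With the replicate block, HES1 passed between KO and NT cells under DMSO (-0.22, adjusted p = 0.031). It also passed under CB-103 (-0.22, adjusted p = 0.044). The genotype difference in the GSI response passed for SHQ1 (0.23, adjusted p = 0.03). The genotype change in the inhibitor difference passed for DTX1 (0.31, adjusted p = 0.042). By the labels, libraries with the same number share only a number. Their deviations from the group means correlated at -0.0713 to 0.352 (median 0.127), over 0.1 in 31 of 45 pairs. Pairs with other numbers had a median of -0.136 and were over 0.1 in 13 of 90. All 15 pairs of libraries numbered 1 lay between 0.257 and 0.352. Of 18 libraries 15 correlated best with their own number. This comes from the data and not from the stated design, and the main fit has no term for it.

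Signs turned in 35 of 1302 values, each on a value that was not called. For HES1 the genotype difference (KO minus NT) in the CB-103 response turned positive. It was 0.012 with DESeq2 size factors, 0.0026 with no count filter and 0.15 with replicates 2 and 3 only. It stood at 0.0029 with the compared groups alone and at 0.021 with the DESeq2 Wald test. For HES4 the genotype difference in the GSI response was 0.0097 with DESeq2 size factors. It was 0.045 with replicates 2 and 3 only and 0.019 with the Wald test. Transcript sums moved it furthest, to -0.496 (adjusted p = 0.24). With transcript sums HES4 stood at -0.060 between KO and NT cells under GSI and at 0.31 for the genotype change in the inhibitor difference. The SHQ1 genotype difference in the CB-103 response then stood at 0.0039. For CR2, KO minus NT under DMSO stood at -0.0039 with replicates 2 and 3 only and -0.0022 with the Wald test. With 1 library left out, KO minus NT under DMSO ran between -0.0173 and 0.0189 for CR2 and between -0.0435 and 0.00974 for SHQ1. Under CB-103, KO minus NT ran between -0.0818 and 0.096 for HES4. The genotype difference in the CB-103 response ran between -0.1 and 0.086 for HES1. That in the GSI response ran between -0.0489 and 0.0621 for HES4 and between -0.00726 and 0.107 for HEYL. For RHOU the genotype change in CB-103 over GSI ran between -0.0465 and 0.112.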
